A study of Mus musculus with 8 samples.

Results

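The chemokines and chemokine receptors were described from lists of DNA regions in which 5-methylcytosine (5mC, by MeDIP-seq) or 5-hydroxymethylcytosine (5hmC, by hMeDIP-seq) differed between pairs of lung libraries from mice that received house dust mite (HDM) or saline through the dam and as adults. Members were all genes given in the gene columns of any of the 6 lists whose symbol is a numbered Ccl, Cxcl, Cx3cl, Xcl, Ccr, Cxcr, Cx3cr or Xcr gene. This gave 50 of 36297 named genes, 34 ligands and 16 receptors. The annotation holds 56 genes of this pattern, and the other 6 (Ccl2, Ccl4, Ccl7, Ccl11, Ccr9 and Cxcr6) were named in no list.

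Nulliparous C57BL/6J dams (F0) received HDM (100 µg of protein, intraperitoneally before mating and intratracheally through pregnancy and lactation) or buffered saline. Their male offspring (F1) were sensitized with HDM or saline at 6 weeks, challenged on days 14, 18 and 21, and used for an airway measurement on day 23. This made 4 groups, named by the treatment of the dam and then of the offspring. They were F0-HDM_F1-HDM (both exposed), F0-HDM_F1-Saline (dam only), F0-Saline_F1-HDM (offspring only) and F0-Saline_F1-Saline (neither). Each group was 1 pool of lung DNA from mice of 3 dams, captured once for each mark, so there were 8 libraries and no replicate of any group. All differences are therefore between single pooled libraries, and no difference between groups could be tested.

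Chemokines are small secreted or membrane-tethered proteins that guide leukocytes along gradients, and their receptors are G protein-coupled receptors on the cells that are guided. In the allergic lung the eotaxins and Ccr3 are known for recruiting eosinophils, Ccl17 and Ccl22 for recruiting Th2 cells through Ccr4, and the Cxcr2 ligands for recruiting neutrophils. 5mC is the stable methyl mark, found mainly at CpG sites in most tissues, and 5hmC is its oxidised form, made by the Tet enzymes.

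Each list set the first-named library against the second. Maternal exposure with challenge was F0-HDM_F1-HDM vs. F0-Saline_F1-HDM, maternal exposure alone was F0-HDM_F1-Saline vs. F0-Saline_F1-Saline, while adult challenge alone was F0-Saline_F1-HDM vs. F0-Saline_F1-Saline. The last 2 lists of each mark share the F0-Saline_F1-Saline library, and F0-Saline_F1-HDM is in both the first and the last, so peaks common to lists are not independent. Every listed region (peak) has a peak shape score, a standard normal deviate whose upper tail is the listed p. Scores began at 1.28, which is a p of 0.1, with no adjustment for the number of regions, and every listed peak was counted, although the study's methods name a false discovery rate threshold that the listed values do not show. The lists hold 13338, 88438 and 63967 MeDIP-seq peaks and 89177, 38333 and 35765 hMeDIP-seq peaks in the order of comparisons above. They give no read counts, so the depth behind a peak is unknown, and whether a mark was higher or lower in the first library is not stated in them. The libraries are from whole lung, in which a different mix of cells and a different mark within cells cannot be told apart.

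The highest scores of any chemokine gene were upstream of Ccl28, a ligand of mucosal epithelia that acts on Ccr10 and Ccr3. Ccl28 spans chr13:119623819-119654359 (GRCm38), and a MeDIP-seq place upstream (119613604 to 119613946), whose nearer edge lay 9872 bp or more from the gene, scored 2.99 for maternal exposure with challenge, 5.82 for maternal exposure alone and 5.26 for adult challenge alone. The listed p were 0.00139, 3e-09 and 7.09e-08. A second place (119615079 to 119615717), 8101 bp or more from the gene, had MeDIP-seq scores of 3.02, 4.99 and 4.52, with listed p of 0.00128, 2.98e-07 and 3.1e-06. Both places were therefore in all 3 MeDIP-seq lists, and both stood higher in the lists whose second library was F0-Saline_F1-Saline. Of these, hMeDIP-seq peaks met only the second place, with a score of 1.74 for maternal exposure with challenge and 2.45 for maternal exposure alone. The bases around the centre of both MeDIP-seq peaks are shown because these were the strongest regions of the family, from the plus strand of GRCm38.p6 (RefSeq), with CpG sites in capitals.
Ccl28 far place, chr13:119613689-119613839: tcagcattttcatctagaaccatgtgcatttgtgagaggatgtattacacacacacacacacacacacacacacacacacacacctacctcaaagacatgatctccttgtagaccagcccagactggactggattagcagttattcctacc
Ccl28 near place, chr13:119615404-119615554: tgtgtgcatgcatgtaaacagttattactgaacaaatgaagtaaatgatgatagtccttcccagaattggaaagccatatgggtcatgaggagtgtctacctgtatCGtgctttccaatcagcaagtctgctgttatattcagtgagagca
The far place held 3 CpG over the whole peak and none in the bases shown, and its centre is a run of CA repeats. The near peak held 5 CpG, 1 of them shown.

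Other regions around Ccl28 scored lower. Between the far and the near place, MeDIP-seq peaks scored 1.92 for maternal exposure alone and 1.65 for adult challenge alone, and an hMeDIP-seq peak scored 2.51 for maternal exposure with challenge (p of 0.0061). At a further upstream place (119616382 to 119617225), hMeDIP-seq peaks at least 6968 bp from the gene scored 2.5 for maternal exposure with challenge and 2.09 for maternal exposure alone. A MeDIP-seq peak of that place scored 1.46 for maternal exposure alone. Inside the gene, an intronic MeDIP-seq peak scored 1.35 in both lists against F0-Saline_F1-Saline, and an hMeDIP-seq peak of 21 CpG scored 1.37 for maternal exposure with challenge, 205 bp past an alternative start. A place downstream was in all 3 MeDIP-seq lists (1.36, 1.45 and 1.61), but 62.9% to 86.2% of its bases have an exact copy elsewhere in the genome, so its position is uncertain. In all, 3, 7 and 6 MeDIP-seq peaks and 5, 3 and 0 hMeDIP-seq peaks lay within 10 kb of Ccl28.

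**Figure D1:**
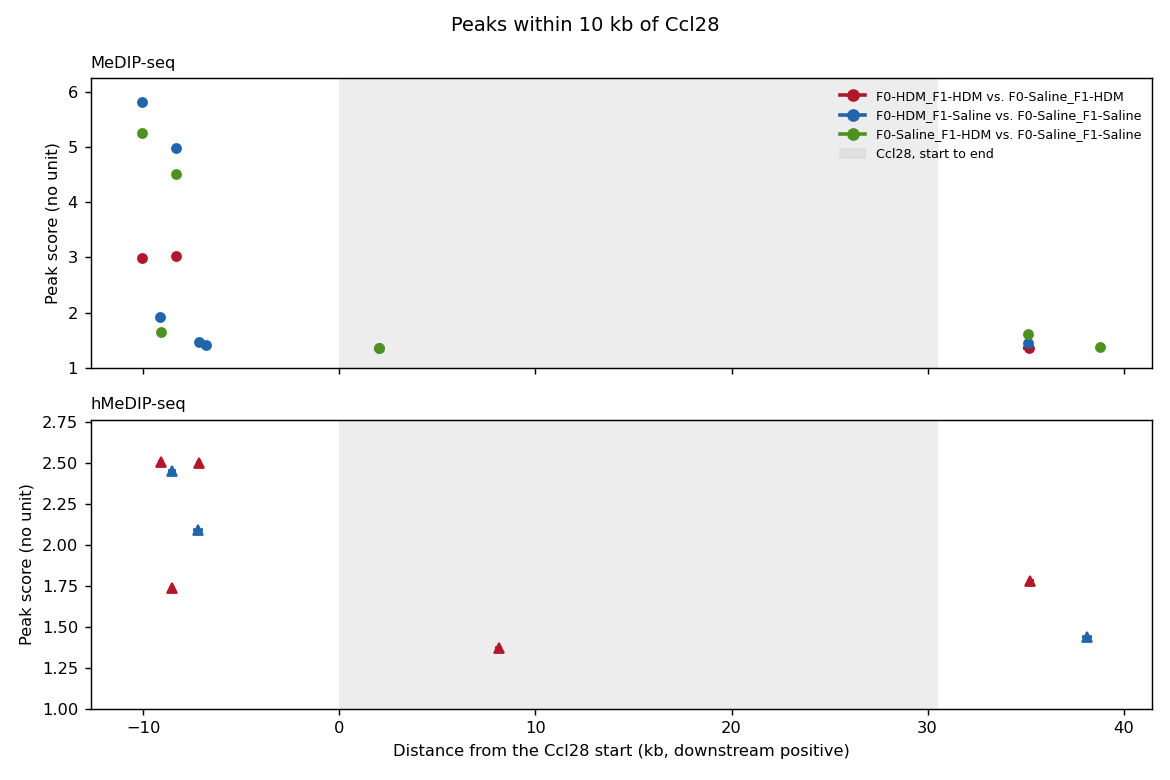
Peak shape score (no unit, vertical axis) of each listed peak around Ccl28 against its distance from the gene's start (kb, downstream positive, horizontal axis, with the gene shaded), MeDIP-seq and hMeDIP-seq in separate panels, with 1 colour for each comparison. The 2 upstream MeDIP-seq places stand at 2.99 to 5.82 in all 3 lists, and every other peak, of either mark, is at 2.51 or below.

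Repeats of this kind were common at the stronger MeDIP-seq peaks of the family. Of the MeDIP-seq peaks within 10 kb of a member with a listed p of 0.01 or less, 8 of 9 held a short tandem repeat (at least 24 bp of a unit of 1 to 4 bases), and the exception was a peak upstream of Ccr8 with no CpG. Of those with a higher p, 37 of 146 held one. For hMeDIP-seq the counts were 1 of 17 and 3 of 87. In the MeDIP-seq lists as a whole the order was the other way, with 11.8% to 18.1% of peaks at a p of 0.01 or less and 26.6% to 28.5% of the others. Across the member peaks of each list the share was 44.4% (4 of 9), 25.6% (22 of 86) and 31.7% (19 of 60), beside 26.0%, 25.9% and 27.3% of all MeDIP-seq peaks and 8.3% of 400-bp tiles of the genome. CA in 10 or more units (CACACACACACACACACACA on either strand, which is also a short tandem repeat where it reaches 24 bp) was in 44.4%, 24.4% and 30.0% of the member peaks, beside 22.4%, 21.1% and 22.6% of the lists and 3.82% of tiles. The part of these repeats in the scores was not tested. The 8 peaks are 6 at Ccl28 and 2 at Cx3cr1, so they come from 3 places.

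Cx3cr1, the fractalkine receptor of monocytes and macrophages, was the member with a peak in all 6 lists. Its listed span follows a long annotated transcript of 168.3 kb, while its RefSeq span is 19.6 kb (chr9:120048683-120068296), so most of its peaks lie outside the receptor gene as RefSeq has it, some of them inside Csrnp1, Ttc21a or Xirp1. Peaks overlapping the long span numbered 2, 25 and 16 for MeDIP-seq and 18, 2 and 6 for hMeDIP-seq in the order of comparisons above. Of these, 0, 3 and 3 MeDIP-seq peaks and 2, 0 and 1 hMeDIP-seq peaks fell in the RefSeq span. The strongest MeDIP-seq place lay beyond the RefSeq end and scored 1.46, 2.63 (p of 0.00422) and 2.56 (p of 0.00525). The strongest hMeDIP-seq peak, with a score of 2.97 (p of 0.0015) for maternal exposure with challenge, lay in Csrnp1, 74217 bp from the RefSeq span, and the highest for adult challenge alone (2.66) lay there too. Within the coding exon of Cx3cr1 itself, hMeDIP-seq peaks scored 1.31 for maternal exposure with challenge and 2.09 for adult challenge alone, and a MeDIP-seq peak scored 1.47 for maternal exposure alone. The sequence at a MeDIP-seq place 396 bp before the eotaxin gene Ccl24 is shown as a further repeat among the MeDIP-seq regions, from the plus strand with any CpG in capitals.
Ccl24 upstream place, chr5:135573562-135573712: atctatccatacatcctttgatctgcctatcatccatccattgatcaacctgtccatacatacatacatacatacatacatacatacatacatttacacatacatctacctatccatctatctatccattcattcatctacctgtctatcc
The stretch is made up largely of short repeats such as CATA, and it holds no CpG.

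**Figure D2:**
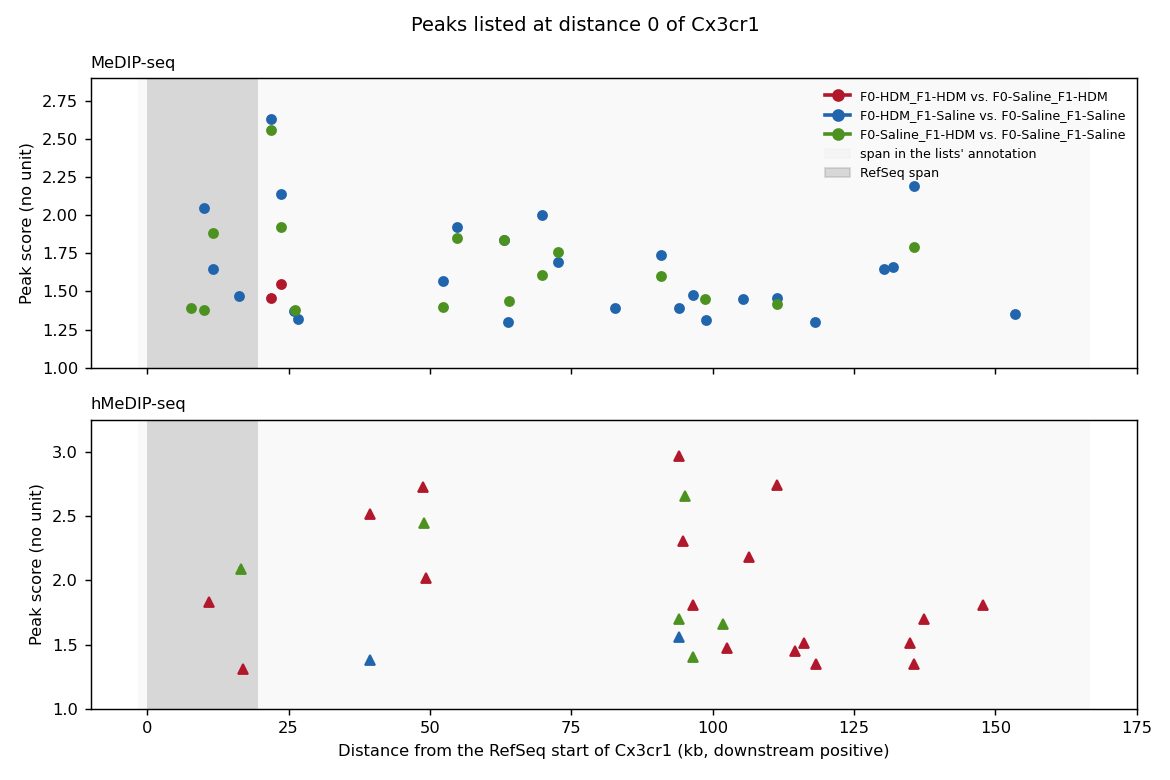
Peak shape score (no unit, vertical axis) of each listed peak over the annotated span of Cx3cr1 against distance from the RefSeq start (kb, horizontal axis, with the RefSeq span in darker grey), by mark in separate panels and by comparison in colour. Most peaks lie beyond the 19.6 kb of the RefSeq span, up to the hMeDIP-seq score of 2.97 in Csrnp1.

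hMeDIP-seq peaks were centred in the coding sequence of receptors and of a few ligands. In at least 1 list, 8 of 16 receptors (Ccr4, Ccr6, Ccr7, Ccr8, Cx3cr1, Cxcr1, Cxcr2 and Cxcr5) had an hMeDIP-seq peak centred in their own coding sequence, and 3 of 34 ligands did (Cx3cl1, Cxcl11 and Cxcl12). This was 22.0% of all members, beside 42.8% of the 18665 named genes with an annotated coding sequence, so the count for the receptors was near this background and that for the ligands below it. For MeDIP-seq the counts were 2 of 16 receptors (Cx3cr1 and Cxcr5) and 2 of 34 ligands (Ccl3 and Cx3cl1), or 8.0% of members beside 15%. The longest coding exon had a median of 1065 bp in receptors (998 to 1119 bp) and 125.5 bp in ligands (109 to 994 bp), so these counts are not per length. By comparison, 7, 2 and 5 receptors and 3, 0 and 0 ligands had such an hMeDIP-seq peak, beside 40.3%, 19.5% and 18.7% of named genes. Counting every coding sequence the peaks met, own or neighbouring, 44.1% of member hMeDIP-seq peaks (30 of 68) were centred in one for maternal exposure with challenge, 26.7% (4 of 15) for maternal exposure alone and 47.6% (10 of 21) for adult challenge alone, beside 20.8%, 16.4% and 16.0% of all peaks of those lists. For MeDIP-seq the shares were 0.0%, 14% (12 of 86) and 8.33% (5 of 60), beside 1.43%, 4.29% and 3.49%. The list shares are of all peaks at any distance from a gene, while the member peaks all lie within 10 kb of one. The 2 are therefore not matched, and no excess in coding sequence at members can be read from them. Without the peaks of the long Cx3cr1 span the shares were 36.0%, 23.1% and 46.7% for hMeDIP-seq and 0.0%, 11.5% and 4.55% for MeDIP-seq. These alternatives without Cx3cr1 were chosen after seeing the data.

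The receptor peaks had the following values. Ccr7, which brings T cells and dendritic cells to lymph nodes, had a coding peak of 37 CpG with a score of 2.85 (p of 0.00217) for adult challenge alone, and coding peaks of 2.04 and 1.95 for maternal exposure with challenge. Cxcr1, a neutrophil receptor, scored 2.5 (p of 0.00622) for maternal exposure with challenge and 1.37 for adult challenge alone. Ccr6, the receptor of Ccl20 on Th17 and B cells, scored 2.44 (p of 0.00733) and 1.72 in the same order. These 3 genes had no hMeDIP-seq peak in the list of maternal exposure alone. Cxcr2 and Ccr8 had a coding hMeDIP-seq peak there and no hMeDIP-seq peak for adult challenge alone. Their scores there (1.33 and 1.3), and that of Cxcr1 for adult challenge alone (1.37), were close to the lowest score listed. Those of Ccr6 (1.72) and Ccr7 (2.85) for adult challenge alone were higher. Of all named genes with a coding sequence, 19.5% had such a coding peak for maternal exposure alone and 18.7% for adult challenge alone. The share with a coding peak in either list but not both was not computed. With single pooled libraries, presence in either list alone cannot be read as a difference between exposures. The neutrophil receptor Cxcr2 scored 1.82 for maternal exposure with challenge and 1.33 for maternal exposure alone, and Ccr8, carried by Th2 and regulatory T cells, 1.39 and 1.3 in the same lists. Cxcr5, which leads B cells to follicles, scored 1.37 for adult challenge alone, with a coding MeDIP-seq peak of 1.39 for maternal exposure alone. Ccr4 scored 1.38 for maternal exposure with challenge.

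The receptors with and without such a peak differed in the CpG content of the longest coding exon, which the choice of genes did not use. The 8 receptors with a coding hMeDIP-seq peak had a median of 3.46 CpG per 100 bp (2.14 in Cxcr2 to 5.03 in Ccr7), and the 8 with none had a median of 1.26 (0.751 in Ccr1 to 6.5 in Ccr10). The sets overlapped, because Ccr10, Cxcr3 (3.12) and Cxcr4 (2.56) had none and lie above some with a peak. The low end included the neighbours Ccr1, Ccr2 (0.804), Ccr3 (1.21) and Xcr1 (1.3). hMeDIP-seq peaks were CpG-rich in general, with medians of 3.48, 3.43 and 3.36 CpG per 100 bp at members, beside 3.7, 4.08 and 3.47 in the lists. MeDIP-seq peaks had 0.906, 1.29 and 1.08 per 100 bp at members, beside 0.735, 1.05 and 0.985 in the lists. Sequences at hMeDIP-seq peaks in the coding exons of Cxcr1 and Ccr7, and at the strongest one assigned to Cx3cr1, which lies in Csrnp1, are shown with the middle of the Ccr2 coding exon, which no list reached, for the difference in CpG (in capitals, plus strand of GRCm38.p6).
Cxcr1 coding exon, chr1:74192286-74192436: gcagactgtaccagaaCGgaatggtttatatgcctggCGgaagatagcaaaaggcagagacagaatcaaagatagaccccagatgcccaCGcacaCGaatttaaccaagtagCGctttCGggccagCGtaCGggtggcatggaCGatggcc
Ccr7 coding exon, chr11:99145660-99145810: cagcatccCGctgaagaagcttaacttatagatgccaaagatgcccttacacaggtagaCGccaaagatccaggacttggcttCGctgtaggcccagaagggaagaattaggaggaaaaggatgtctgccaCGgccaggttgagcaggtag
Csrnp1 coding sequence in the long Cx3cr1 span, chr9:119974220-119974370: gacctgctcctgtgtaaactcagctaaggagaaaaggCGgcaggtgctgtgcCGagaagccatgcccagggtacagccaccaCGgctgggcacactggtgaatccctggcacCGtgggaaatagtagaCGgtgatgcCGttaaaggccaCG
Ccr2 coding exon, no peak, chr9:124106169-124106319: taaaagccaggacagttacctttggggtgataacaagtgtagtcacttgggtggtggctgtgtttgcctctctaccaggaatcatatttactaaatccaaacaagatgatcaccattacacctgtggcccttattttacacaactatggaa
The stretches in Cxcr1 and Ccr7 hold 9 and 4 CpG and that in Csrnp1 holds 7, while that of Ccr2 holds none in as many bases. Ccr2 is from the low end of the receptors, and its whole coding exon holds 9 CpG in 1119 bp. The longest coding exon of Ccr10, which had no coding peak either, holds 69 CpG in 1062 bp. The stretch of Ccr2 therefore does not stand for the receptors without a peak.

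**Figure D3:**
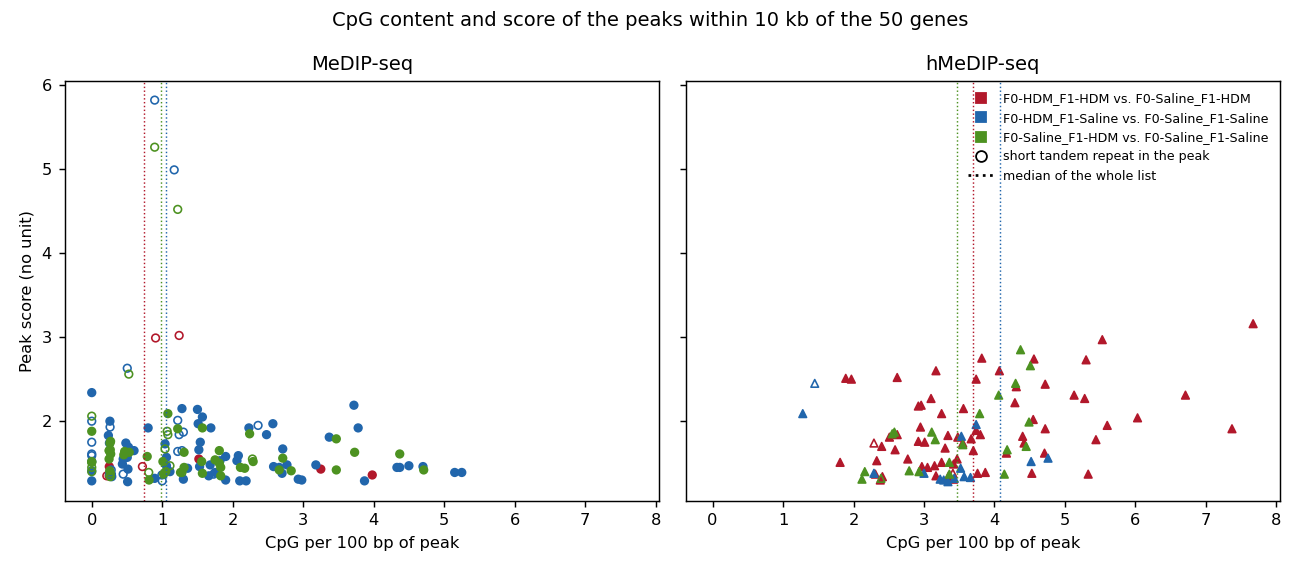
Peak shape score (no unit, vertical axis) of each listed peak within 10 kb of a member against its CpG per 100 bp (horizontal axis), by mark in separate panels, with 1 colour for each comparison, open symbols for peaks that hold a short tandem repeat and dotted lines at the medians of the whole lists. The MeDIP-seq peaks with the highest scores are open symbols of low CpG content, and the hMeDIP-seq peaks lie around 3 to 4 CpG per 100 bp.

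Across the family, a smaller share of genes had an hMeDIP-seq peak than of all named genes. For hMeDIP-seq, 14 of 50 members (28.0%, 95% Clopper-Pearson interval 16.2% to 42.5%) were overlapped for maternal exposure with challenge, beside 39.3% of all named genes. For maternal exposure alone 4 members were overlapped (8.0%, 2.22% to 19.2%), beside 22.2%, and for adult challenge alone 7 (14%, 5.82% to 26.7%), beside 24.3%. Within 10 kb, the hMeDIP-seq counts were 23 (46.0%, beside 60.2%), 10 (20%, beside 36.3%) and 13 (26.0%, beside 37.2%). The interval for maternal exposure alone did not reach the share of all named genes on either count (10% to 33.7% within 10 kb), while the others held it. These intervals treat members as independent and cover counting error only, although genes in clusters share peaks and each group was 1 library. They are therefore no test of a deficit in the family. Members were shorter than other genes, with a median span of 4.99 kb beside 6.58 kb. Per length the order was mixed, with 4.38, 1.0 and 1.5 hMeDIP-seq peaks per 100 kb of member windows, beside 4.11, 1.52 and 1.58 around all named genes. The order depended on the long listed span of Cx3cr1, without which the member densities were 3.69, 0.992 and 1.28, lower in every list. With RefSeq spans of the members they were 4.19, 1.32 and 1.62.

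For MeDIP-seq, 3 members (6.0%, 1.25% to 16.5%) were overlapped for maternal exposure with challenge, beside 7.67% of all named genes. The counts were 14 (28.0%, 16.2% to 42.5%) for maternal exposure alone, beside 34.4%, and 11 (22.0%, 11.5% to 36.0%) for adult challenge alone, beside 27.9%. Within 10 kb they were 6 (12.0%, beside 13.5%), 31 (62.0%, beside 59.7%) and 25 (50%, beside 49.3%), all near the background. Per length the windows around members held 0.563, 5.82 and 4.06 MeDIP-seq peaks per 100 kb, beside 0.522, 3.94 and 2.74 around all named genes. Without Cx3cr1 the member densities were 0.496, 4.75 and 3.4. The windows around members also held more CpG (1.13 per 100 bp, beside 0.952) and less interspersed or simple repeat (26.9%, beside 31.1%), and the part of these in the densities was not tested. The intervals cover counting error only, and genes in clusters share peaks.

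**Figure D4:**
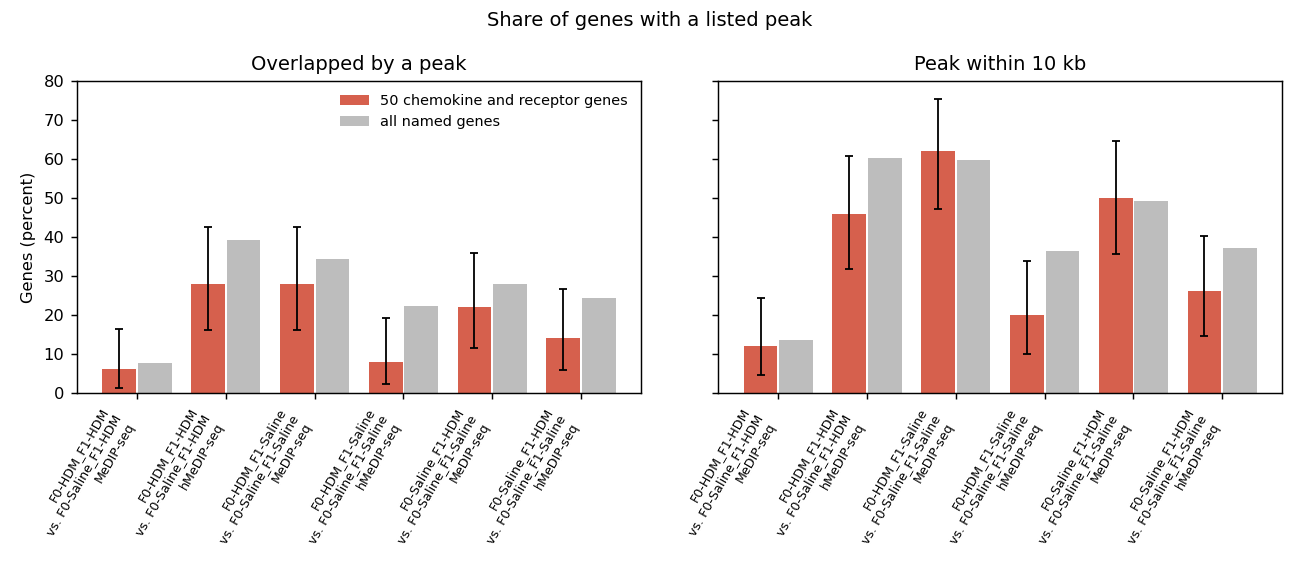
Percent of genes (vertical axis) overlapped by a peak and with a peak within 10 kb, in separate panels, for each of the 6 lists, with the 50 chemokine genes in red (bars of error are 95% Clopper-Pearson intervals) left of all named genes in grey. The red bars are lower than the grey ones for hMeDIP-seq in every list and close to them for MeDIP-seq within 10 kb, for example 62.0% and 59.7% within 10 kb for maternal exposure alone.

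Scores of the member peaks were near those of the lists, apart from a lower median for hMeDIP-seq of maternal exposure alone. The median score within 10 kb was 1.46, 1.53 and 1.54 for MeDIP-seq in the order of comparisons above, beside 1.53, 1.52 and 1.53 for all peaks, and 1.81, 1.41 and 1.75 for hMeDIP-seq, beside 1.8, 1.65 and 1.82. Peaks with a listed p of 0.001 or less were only those at Ccl28, in 2 MeDIP-seq lists, and 1 hMeDIP-seq peak at Cxcl17. Of the 34 ligands and 16 receptors, the numbers overlapped were 2 and 1, 9 and 5, and 7 and 4 for MeDIP-seq, and 7 and 7, 1 and 3, and 2 and 5 for hMeDIP-seq. Over all lists, 21 members (42.0%) were overlapped at least once, beside 50.5% of all named genes, and 37 (74.0%) had a peak within 10 kb, beside 79.6%. The other 13 (26.0%, beside 20.4%) had none.

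**Figure D5:**
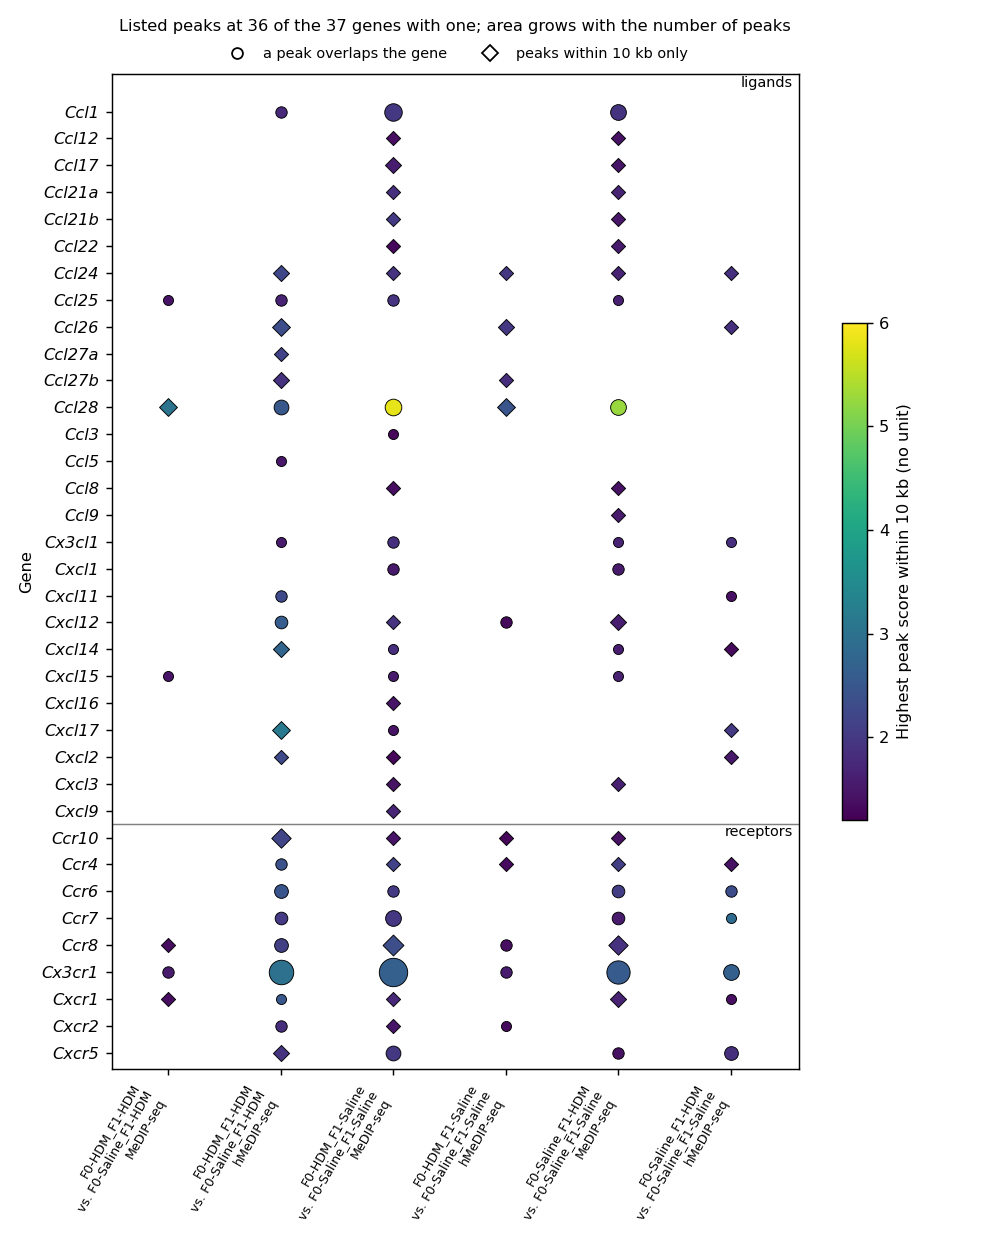
Of the 37 members with a peak within 10 kb, 36 are drawn (rows, ligands above receptors) in the 6 lists (columns). Circles mark genes overlapped by a peak and diamonds those with peaks within 10 kb only, colour gives the highest peak shape score (no unit) and area the number of peaks, and Ccl28 has the highest colour (5.82) and Cx3cr1 the largest symbols.

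The 13 members with no peak within 10 kb in any list were the ligands Ccl6, Ccl19, Ccl20, Cxcl5, Cxcl10, Cxcl13 and Xcl1 and the receptors Ccr1, Ccr2, Ccr3, Cxcr3, Cxcr4 and Xcr1. The nearest listed peaks of Xcr1, the receptor of cross-presenting dendritic cells, lay 10821, 10813 and 10832 bp away for MeDIP-seq, just outside the limit, and 61088, 61057 and 62276 bp away for hMeDIP-seq. The study names Xcr1 among the genes that differed in both marks for maternal exposure with challenge, an assignment that the limit of 10 kb does not reproduce. Of the 6 genes in no list, Ccl2, Ccl4, Ccl7, Ccl11 and Cxcr6 also had no peak within 10 kb of their annotated span. Ccr9 did, with 0, 4 and 4 MeDIP-seq and 4, 3 and 2 hMeDIP-seq peaks, although the lists assigned these to other genes.

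Linked within 500 kb, the members form 26 clusters, for which peaks were summed over the 3 lists of each mark. These lists share libraries, and a place found in several lists is counted in each, so the sums are not numbers of distinct places. They were not set beside other loci. The sums follow the listed spans, which for Cx3cr1 (168.3 kb) and Ccl1 (129.0 kb) are far longer than the RefSeq spans (19.6 and 3.1 kb). Most peaks overlapping these 2 genes lay outside their RefSeq spans, so the sums of their clusters are not comparable with those of the others. The cluster of Cx3cr1 and Ccr8 held 53 MeDIP-seq and 32 hMeDIP-seq peaks in 211.1 kb. Among ligand clusters, that of Ccl12, Ccl8 and Ccl1 held 16 MeDIP-seq and 2 hMeDIP-seq peaks in 184.0 kb, and that of Ccl22, Cx3cl1 and Ccl17 held 8 and 2 in 78.1 kb. The monocyte and macrophage ligands Ccl5, Ccl9, Ccl6 and Ccl3 held 2 MeDIP-seq peaks and 1 hMeDIP-seq peak in 86.4 kb. The order was the other way for Ccl26 and Ccl24, with 2 MeDIP-seq and 6 hMeDIP-seq peaks in 32.6 kb, and for Cxcl9, Cxcl10 and Cxcl11, with 1 and 3 in 64.1 kb.

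Among the ligands of allergic inflammation, the eotaxin genes had peaks between and beside them. Ccl24, a ligand of Ccr3, had the CATA repeat at scores of 1.93 for maternal exposure alone and 1.66 for adult challenge alone. An intergenic hMeDIP-seq place between Ccl26 and Ccl24 was in all 3 lists (2.22, 1.96 and 1.87), with 23.6% to 51.7% of its bases copied elsewhere. A further one beside Ccl26 scored 2.31 for maternal exposure with challenge and 1.52 for maternal exposure alone, with 49.5% and 38.0% of its bases copied. Ccr3 itself and Ccl11 had none. Of the Ccr4 ligands, Ccl22 had a MeDIP-seq peak 321 to 377 bp before it (1.31 for maternal exposure alone and 1.52 for adult challenge alone), and Ccl17 had peaks of 1.58 and 1.4 for maternal exposure alone and of 1.45 for adult challenge alone. Ccr4, the receptor of Th2 cells, had adjoining downstream peaks of both marks (chr9:114487249-114488361), with MeDIP-seq scores of 2.15 for maternal exposure alone and 2.09 for adult challenge alone and hMeDIP-seq scores of 2.41 (p of 0.00807), 1.34 and 1.41. Only the hMeDIP-seq peak of adult challenge alone shared bases with the MeDIP-seq peaks. The centre of the strongest hMeDIP-seq peak is shown, with 7 CpG in capitals, as a stretch that all 3 hMeDIP-seq lists and no MeDIP-seq list reached.
Ccr4 downstream place, chr9:114487945-114488095: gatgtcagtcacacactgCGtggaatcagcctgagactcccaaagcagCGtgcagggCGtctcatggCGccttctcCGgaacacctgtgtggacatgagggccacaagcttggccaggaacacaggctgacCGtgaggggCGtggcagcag
Ccl1, a ligand of Ccr8, had MeDIP-seq peaks of up to 1.97 for maternal exposure alone and 1.91 for adult challenge alone and hMeDIP-seq peaks of 1.53 and 1.76 for maternal exposure with challenge, all but 1 of the overlapping ones outside its RefSeq span of 3.1 kb, since its annotated span is 129.0 kb.

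Ccr8 had several places upstream. A MeDIP-seq peak 6681 bp from the gene, with no CpG, scored 2.34 (p of 0.00972) for maternal exposure alone and 1.88 for adult challenge alone, and the same place scored 1.35 for maternal exposure with challenge. A place 8251 bp upstream carried both marks for maternal exposure alone (MeDIP-seq 1.81 and hMeDIP-seq 1.38), with hMeDIP-seq at 2.09 for maternal exposure with challenge and MeDIP-seq at 1.42 for adult challenge alone. Ccr6 had an intronic MeDIP-seq peak of 2.0 for maternal exposure alone and 2.06 for adult challenge alone, a tandem repeat with no CpG, and an hMeDIP-seq peak downstream of 1.91 for maternal exposure with challenge and 2.31 for adult challenge alone. Its ligand Ccl20 had none.

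The ligands of neutrophil receptors had mostly MeDIP-seq peaks. Cxcl1 had MeDIP-seq peaks of 1.53 and 1.48 for maternal exposure alone and of 1.54 and 1.35 for adult challenge alone. Cxcl2 had hMeDIP-seq peaks of 2.27 for maternal exposure with challenge and 1.51 for adult challenge alone, 59.7% and 52.6% copied elsewhere, and a MeDIP-seq peak of 1.28 for maternal exposure alone. Cxcl3 had MeDIP-seq peaks of 1.44 and 1.63. Cxcl5 had none. Lungkine (Cxcl15), made by lung epithelium in mice, had an intronic MeDIP-seq place in all 3 lists (1.46, 1.55 and 1.64), and Ccl25, the ligand of Ccr9, another (1.43, 1.92 and 1.63). Summed over the 3 lists of each mark, the cluster of Cxcl5, Cxcl3, Cxcl15, Cxcl1 and Cxcl2 held 10 MeDIP-seq and 2 hMeDIP-seq peaks. Cxcr1 had MeDIP-seq peaks 79 and 68 bp past its end, of 1.35 for maternal exposure with challenge and 1.65 for adult challenge alone.

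The mucosal ligand Cxcl17 had the strongest hMeDIP-seq peak of the family, at 3.16 (p of 0.00078) for maternal exposure with challenge, 9902 bp from the gene at 4732471J01Rik and Gm20949. The same region gave a second peak of 2.6 in that list and a peak of 1.99 for adult challenge alone. Its centre, in a stretch of 72.8% GC with 17 CpG, is shown because it carries the highest hMeDIP-seq score.
Cxcl17 upstream place, chr7:25422878-25423028: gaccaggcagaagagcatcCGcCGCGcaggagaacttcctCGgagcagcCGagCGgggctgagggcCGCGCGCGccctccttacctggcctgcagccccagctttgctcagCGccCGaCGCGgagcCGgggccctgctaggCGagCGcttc
Cxcl14, an epithelial chemokine, had an hMeDIP-seq peak 4979 bp downstream at 2.75 (p of 0.00296) for maternal exposure with challenge and a MeDIP-seq peak of 1.84 for maternal exposure alone and 1.56 for adult challenge alone, centred in an intron and reaching over most of a coding exon. Cxcl12, the ligand of Cxcr4, had hMeDIP-seq peaks of 2.6 (p of 0.00467), 1.74 and 1.37 for maternal exposure with challenge and of 1.31 and 1.32 for maternal exposure alone, at its exons. Outside the gene it had MeDIP-seq peaks of 1.92 for maternal exposure alone and of 1.58 and 1.39 for adult challenge alone. Cxcr4 had none. Cxcl11, an interferon-induced ligand of Cxcr3, had a coding hMeDIP-seq peak of 2.27 for maternal exposure with challenge and one upstream of its RefSeq span of 1.74 and, for adult challenge alone, 1.4. Both places also lie in the gene Art3. Its neighbour Cxcl9 had a MeDIP-seq peak of 1.67 for maternal exposure alone, and neither Cxcl10 nor Cxcr3 had any.

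The remaining members had scores of 2.19 or below. Fractalkine (Cx3cl1), the ligand of Cx3cr1, had an intronic MeDIP-seq peak of 1.83 for maternal exposure alone and 1.65 for adult challenge alone, and hMeDIP-seq peaks of 1.55 for maternal exposure with challenge and 1.85 for adult challenge alone centred in its coding sequence and its UTR. Ccl5, a ligand of Ccr1 and Ccr3, had an intronic hMeDIP-seq peak of 1.49 for maternal exposure with challenge, and Ccl3 a coding MeDIP-seq peak of 1.29 for maternal exposure alone. Cxcl16, the membrane-bound ligand of Cxcr6, had a MeDIP-seq peak of 1.46 for maternal exposure alone. Ccl21a, a ligand of Ccr7, had MeDIP-seq peaks 2 and 15 bp past its end (1.87 for maternal exposure alone and 1.67 for adult challenge alone), and Ccl19, the other, had none. The peaks at Ccl21b (MeDIP-seq, 2.01 for maternal exposure alone and 1.47 for adult challenge alone) and Ccl27b (hMeDIP-seq, 1.89 and 1.68 for maternal exposure with challenge and 1.82 for maternal exposure alone) are 100.0% copied elsewhere in the genome and are uncertain in position. Ccl27a, like Ccl27b a ligand of Ccr10, had an hMeDIP-seq peak of 2.15 for maternal exposure with challenge, 42.2% copied. Ccl12 and Ccl8 shared a MeDIP-seq peak of 1.38 for maternal exposure alone and 1.41 for adult challenge alone, and Ccl9 had one of 1.55 for adult challenge alone. Ccr10, a receptor of Ccl28, had hMeDIP-seq peaks of 1.62, 1.62, 2.19 and 1.79 for maternal exposure with challenge, all upstream at Cntnap1, and 1 of 1.28 for maternal exposure alone. The place of the 2.19 peak also had MeDIP-seq peaks of 1.45 for maternal exposure alone and 1.42 for adult challenge alone. For the B cell ligand Cxcl13 there was none, and the places of its receptor Cxcr5 lay mainly in Bcl9l, up to 1.97 for MeDIP-seq and 1.93 for hMeDIP-seq.

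No promoter window that matched a member was met by a peak, but not every member had such a window. Of the members, 39 matched the RefSeq table of promoters, with 46 windows of 300 bases around a start (GRCm38.p6), and 0 windows were met in any list. Of all 32851 windows in RefSeq's set, 5.84% were met by a peak of some list, and 0.234% to 3.01% per list. The member windows had a median of 4.5 CpG, beside 7.0 in all windows. Members with a peak centre within 2 kb of a RefSeq start numbered 2, 11 and 11 for MeDIP-seq and 9, 2 and 2 for hMeDIP-seq. The share of all named genes at this distance was not computed. The closest peak centres to a RefSeq start were at Ccl27b, 1 bp before a start in copied sequence for maternal exposure with challenge, at Ccl28, 205 bp past an alternative start, and at Cxcr1, 403 and 483 bp past an alternative start. None of the starts that these peaks lie near is among the windows of the table.

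The 2 marks seldom shared a place. Of 144 places within 10 kb of a member, 75 were in MeDIP-seq lists only, 54 in hMeDIP-seq lists only and 15 in both, with 8 in all 3 MeDIP-seq lists, 3 in all 3 hMeDIP-seq lists and none in all 6. Within 1 comparison peaks of both marks shared bases at Ccl28 for maternal exposure with challenge, at Ccl28, Ccr8 and Cx3cr1 for maternal exposure alone, and at Ccr4 and Cxcr5 for adult challenge alone. These were 22.2%, 4.65% and 3.33% of the member MeDIP-seq peaks, beside 15.9%, 7.85% and 7.45% of each list. Across lists that share libraries, 100.0%, 64% and 91.7% of the member MeDIP-seq peaks met one of another MeDIP-seq list, beside 98.3%, 61.4% and 86.0% of all. For hMeDIP-seq, 47.1%, 93.3% and 85.7% did, beside 52.9%, 94.7% and 90.4%, so both marks were near the lists. Peaks in both other lists of the mark were 88.9%, 9.3% and 13.3% for MeDIP-seq, beside 91.8%, 13.8% and 19.1%, and 4.41%, 20% and 14.3% for hMeDIP-seq, beside 24.4%, 56.0% and 59.2%. The member hMeDIP-seq peaks held less repeat, with medians of 5.87%, 9.96% and 6.08% of bases soft-masked, beside 14%, 81.1% and 35.6%, and whether this bears on the lower share was not tested.

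Among other genes of the pathway, 9 of 10 chemokine-binding or chemokine-like genes were named in the lists, and 1, 3 and 3 were overlapped by MeDIP-seq peaks and 5, 4 and 4 by hMeDIP-seq peaks, beside 7.67%, 34.4% and 27.9% of all named genes for MeDIP-seq and 39.3%, 22.2% and 24.3% for hMeDIP-seq. The scavenging receptor Ackr3 was overlapped in all 3 MeDIP-seq lists, and Ackr2, Ackr4, Cmklr1 and Pitpnm3 in all 3 hMeDIP-seq lists. Of 23 signalling genes below the receptors 21 were named, with 5, 15 and 15 overlapped for MeDIP-seq and 16, 6 and 12 for hMeDIP-seq. These counts are to be read against the shares of all named genes just given. Adrbk2, Grk5 and the Rac activators Dock2 and Prex1 were overlapped in all 6 lists. Dock2, which drives the movement of lymphocytes, had MeDIP-seq scores of up to 7.96, 11.7 and 11.1 and hMeDIP-seq scores of up to 4.14, 4.23 and 1.48, over a span of 557.1 kb. These genes are longer than the chemokine genes, and their counts were not set per length.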

How the data were processed

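Lung DNA of male offspring was pooled per group from mice of 3 dams, sheared to about 200 bp, captured with MethylCap (MeDIP-seq) or hMethylCap (hMeDIP-seq) kits and sequenced. Bowtie 0.12.9, CASAVA 1.8.0, FastQC and the mm10 build appear in the submitters' processing notes, and the study's methods name CLC Genomics Workbench for the analysis and a false discovery rate threshold for peaks, which the listed values do not show, so every listed peak was counted. The authors deposited 6 lists with a peak shape score and an unadjusted p-value for each peak and the closest genes with their distance in bp. The direction of change and the depth are not stated, and the lists reach a p of 0.1.

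Members and gene lists were chosen with earlier results of these data known. A gene was overlapped at a listed distance of 0 and counted as near within 10 kb. All 36297 named genes gave the background. Genes named in the text were those with the 5 lowest p at distance 0 and the 3 lowest p outside the gene in each list, those with both marks at 1 place or overlapped in 5 or 6 lists, preset ligand and receptor pairs, and those without peaks. Listed distances equalled those to GENCODE vM21 spans, within 1 bp, for 670 of 824 pairs of a peak and a member (81.3%), and not for the others. The GENCODE spans of Cx3cr1, Ccl1 and Cxcr5, among others, are over 2 times those of RefSeq, so RefSeq spans were also used. A base counted as copied where its 51-bp window has another exact copy in the genome. The values of 1 member and 1 sequence are not reported here, although counts over members include that gene. With 1 library per group no test was run, and intervals are exact Clopper-Pearson at 95%, for counting error only. Alternatives were a p of 0.001 or 1e-06, the strongest 10000 peaks, other distances, windows and spans, no recurrent places, and a shared 50% of the shorter peak. Python 3.11.15, pandas 2.3.3, numpy 2.4.6, scipy 1.17.1, numba 0.67.0 and matplotlib 3.10.9 were used, and scripts were tested on simulated data.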

Additional observations from a re-analysis of the deposited data

How the results depend on the processing

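No paired analysis was possible because each group was 1 pooled library per mark, and for the same reason no library could be left out. Values are in the order of the MeDIP-seq and then the hMeDIP-seq list of maternal exposure with challenge, of maternal exposure alone and of adult challenge alone. At a p of 0.001 or less, and also at 1e-06 or less, the number of overlapped members was 0 in all 6 lists. Within 10 kb it was 0, 1, 1, 0, 1 and 0 at a p of 0.001, and 0, 0, 1, 0, 1 and 0 at 1e-06. At a p of 0.001 the densities were 0.0, 0.0625, 0.125, 0.0, 0.125 and 0.0625 peaks per 100 kb. With the strongest 10000 peaks of each list, overlapped members numbered 1, 1, 0, 2 and 2 in the last 5 lists, and members within 10 kb numbered 2, 3, 1, 4 and 2, the cause being the smaller number of peaks kept. A limit of 2 kb gave 15, 5 and 8 members for hMeDIP-seq, and windows of 50 kb gave 1.01 peaks per 100 kb for MeDIP-seq of maternal exposure with challenge and 2.01 for hMeDIP-seq of maternal exposure alone. Sharing 50% of the shorter peak left 1 member with both marks for adult challenge alone. A limit of 5 kb, annotated or RefSeq spans and leaving out recurrent places kept the counts of members within 1.5 times where they were run, as did leaving out Cx3cr1 for the densities. Numbers of peaks moved more, since 2, 21, 19, 4, 13 and 6 overlapping peaks fell in RefSeq spans of the 4, 40, 48, 6, 31 and 12 in listed spans, and the MeDIP-seq coding share of adult challenge alone was 4.55% without Cx3cr1 and 8.33% with it. The RefSeq spans and the omission of Cx3cr1 were chosen after seeing the data. Depth is unknown, so how it limits the lists could not be given.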
